A study of Mus musculus with 1790 samples.

Results

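Hmx3-lineage cells of the embryonic preoptic area (POA) were set against cortical neurogliaform cells (NGCs) of the same lineage at postnatal day (P) 30. The embryonic group was every cell of the E14.5 collection sorted as tdTOM+/GFP+ from the POA (418 cells). The P30 group was those tdTOM+/GFP+ cells from upper-layer somatosensory cortex that the authors had labelled Lamp5 Plch2 Dock5 (Dock5+NGCs, 76 cells) or Lamp5 Lsp1 (Lsp1+NGCs, 35 cells), which gave 529 of the 1790 samples of the series. Each sample used here is 1 cell. A reference group of 96 tdTOM-/GFP+ cells from the P30 cortex, labelled as any other subtype, was used to see which levels mature Htr3a interneurons (INs) shared. The genotype labels are Htr3a-GFP+/Hmx3-Cre;R26tdTOM+ for the E14.5 cells and the NGCs and Htr3a-GFP+/Hmx3-Cre;R26tdTOM- for the reference cells, treatment was none, and at P30 the brains were pooled. Both P30 sorts were read in 1 table. A P15 collection from the same cortical layers, also of pooled brains, added 69 cells with the NGC labels for values at an intermediate age. These cells had the same genotype label as the NGCs. The tdTOM-/GFP+ cells of other subtypes in the P15 collection served as the reference at that age. Hmx3-Cre and Htr3a-GFP are transgenes, so tdTOM marked cells in which the Cre driver had been active at some time and GFP marked activity of the Htr3a driver. The labels do not tie cells to animals, so each collection counted as 1 sample, replicates were lacking and no difference was tested. Age, brain region, dissociation (trypsin or papain) and chip changed together, so their parts in any difference cannot be told apart.

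NGCs are the INs that inhibit their neighbours by releasing GABA as a diffuse cloud around a dense, short axon, and they lie mostly in the superficial cortex. Many of them are born in the POA from precursors that express the homeobox genes Hmx2 and Hmx3, and then migrate to the cortex. During that time a newborn neuron stops remodelling its cytoskeleton for migration and builds its channels, receptors and release machinery.

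Genes were compared over the 16384 rows that both tables held. For each group, the counts of its cells were added up and scaled to the same total over those rows, in the unit CPM. A gene was called gained with at least 50 CPM at P30 and a difference of at least 2 on the log2 scale (4-fold), lost with at least 50 CPM at E14.5 and a difference of -2 or less, and kept with at least 50 CPM at both ages and a difference between -1 and 1. All log2 differences were taken after 10 CPM had been added to both levels, which understates the change of low genes. Ranges in brackets are 95% intervals for counting error only (exact Poisson for CPM, exact Clopper-Pearson for shares). The true error is wider, as counts came in clumps: a gene present in 5 to 10% of cells held on average 26.9 counts per positive cell at E14.5 and 21.8 in NGCs.

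The starts of 5 genes from the classes are printed here, because the same windows differed widely in CG dinucleotides (capitals). Each is 300 bases long, 250 before and 50 after the 5'-most RefSeq start in GRCm38.p6, written from 5' to 3'. Hmx2 and Nnat were lost, Tox2 was kept, and Lamp5 and Npy were gained.
Hmx2 (chr7:131548507-131548806, + strand): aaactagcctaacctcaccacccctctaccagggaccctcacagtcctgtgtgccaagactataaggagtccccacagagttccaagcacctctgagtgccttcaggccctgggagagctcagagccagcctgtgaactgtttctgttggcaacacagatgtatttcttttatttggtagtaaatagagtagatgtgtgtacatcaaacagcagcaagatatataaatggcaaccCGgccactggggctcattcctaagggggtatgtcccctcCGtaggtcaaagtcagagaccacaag
Nnat (chr2:157559828-157560127, + strand): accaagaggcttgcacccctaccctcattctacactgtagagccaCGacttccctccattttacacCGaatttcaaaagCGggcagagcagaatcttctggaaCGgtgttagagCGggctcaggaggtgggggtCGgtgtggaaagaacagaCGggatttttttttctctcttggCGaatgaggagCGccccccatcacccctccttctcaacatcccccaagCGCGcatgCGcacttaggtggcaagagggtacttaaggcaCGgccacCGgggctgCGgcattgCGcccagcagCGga
Tox2 (chr2:163202877-163203176, + strand): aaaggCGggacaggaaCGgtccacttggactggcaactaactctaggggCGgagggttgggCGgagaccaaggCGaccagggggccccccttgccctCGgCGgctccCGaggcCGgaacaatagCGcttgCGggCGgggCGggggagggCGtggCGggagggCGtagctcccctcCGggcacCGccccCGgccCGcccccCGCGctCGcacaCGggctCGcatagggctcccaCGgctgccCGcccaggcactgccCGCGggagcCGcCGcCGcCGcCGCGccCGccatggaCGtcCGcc
Lamp5 (chr2:136052089-136052388, + strand): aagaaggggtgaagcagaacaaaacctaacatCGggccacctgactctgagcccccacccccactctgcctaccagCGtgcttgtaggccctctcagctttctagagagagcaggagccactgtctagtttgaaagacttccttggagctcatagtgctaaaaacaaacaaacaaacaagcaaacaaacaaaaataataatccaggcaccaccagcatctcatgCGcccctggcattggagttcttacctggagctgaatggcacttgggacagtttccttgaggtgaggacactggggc
Npy (chr6:49822460-49822759, + strand): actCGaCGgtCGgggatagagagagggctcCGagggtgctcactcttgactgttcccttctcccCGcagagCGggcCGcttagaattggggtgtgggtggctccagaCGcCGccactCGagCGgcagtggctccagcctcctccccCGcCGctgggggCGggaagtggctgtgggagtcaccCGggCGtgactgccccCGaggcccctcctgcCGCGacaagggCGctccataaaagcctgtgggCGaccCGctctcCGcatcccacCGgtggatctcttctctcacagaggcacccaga
The windows of Hmx2 and Lamp5 held 2 and 3 CG dinucleotides, and those of Nnat, Npy and Tox2 held 17, 24 and 38. For the classes, the windows at all RefSeq starts of a gene were used. CG counts were averaged over them, and a motif was counted if any of them held it. On that basis the median was 19.65 CG dinucleotides for the gained genes (490 of 670 matched) and 21 for the lost (263 of 353). It was 24 for the kept genes (1582 of 2022), against 21 for all rows (10175 of 16384). Fewer than 5 were held by 6.73% of gained, 3.04% of lost, 1.83% of kept and 5.26% of all genes. Hmx2 and Lamp5 each had 2 RefSeq starts, and their counts above are of the 5'-most alone. They are therefore not on the measure of these shares. The HMX core motif CAAGTG (or CACTTG on the other strand) stood in the windows of Tox2 and Lamp5, and in 18.0% of gained, 11.4% of lost, 13.3% of kept and 13.4% of all genes with a window. TATAAA, read on the strand shown, stood in the window of Hmx2 and in 7.76% of gained, 8.37% of lost, 4.42% of kept and 5.03% of all genes.

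At E14.5 the cells held 104395 to 801439 counts (median 353938), P30 NGCs 82211 to 918414 (median 215933) and the reference cells 82800 to 623529 (median 233322). With every cell thinned to 100000 counts, which left out 1 NGC and 2 reference cells, the median number of genes found was 3734.5, 3481.5 and 3542. In the unthinned cells it was 4556, 4150 and 4288.5. GABAergic markers were present in the median cell at both ages. Summed over Gad1, Gad2, Slc32a1, Dlx1, Dlx5 and Dlx6, the median cell was at 1612 CPM at E14.5 (lowest 2.99), 7546 in NGCs and 4283 in the reference cells. Of 8 glutamatergic markers, 7 had a row at E14.5 and summed to 42.2 CPM (highest cell 2672). They were led by the transporter gene Slc17a6 (23.9), found in 17.5% of cells. At P30, 3 of the 8 had a row, without Slc17a6, and summed to 1.66 CPM in NGCs, so the sums are of unlike sets. The median cell was at 0 in both groups. Microglial markers could hardly be checked, since of 6 listed 1 had a row at E14.5 and 0 at P30, and of 6 red blood cell markers 1 had a row at each age. Oligodendrocyte markers summed to 104 CPM at E14.5 (highest cell 999), 33.8 in NGCs and 55.2 in the reference cells. Cajal-Retzius markers summed to 52.3 CPM at E14.5, and at P30, where Calb2 alone had a row, to 4.83 in NGCs and 85.6 in the reference cells. Of the astrocyte markers, the glutamate transporter gene Slc1a2 was at 46.5 CPM at E14.5, 328 in NGCs and 414 in the reference cells, and the part of these cell types in other results was not tested.

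Of the 16384 rows, 670 genes were gained (4.09%), 353 were lost (2.15%) and 2022 were kept (12.3%). Of the 5528 genes that reached 50 CPM at either age, these were 12.1%, 6.39% and 36.6%. Counts of list members given below can be read beside these shares. The median difference over all rows was -0.02, and scaling by the median ratio of genes expressed at both ages would have moved every difference from E14.5 up by 0.17. When the mean of log2 values over single cells replaced the summed counts, 361 genes were gained and 549 lost, so the balance of gained to lost genes depended on the measure. With the summed counts, Itm2c (81.8 and 357 CPM at E14.5 and P30) lay just inside the limit for gained genes and Gm3764 (62.6 and 279) just outside it. At the limit for lost genes, Eef1g (437 and 102 CPM) lay just inside and Fnta (129 and 24.9) just outside.

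**Figure D1:**
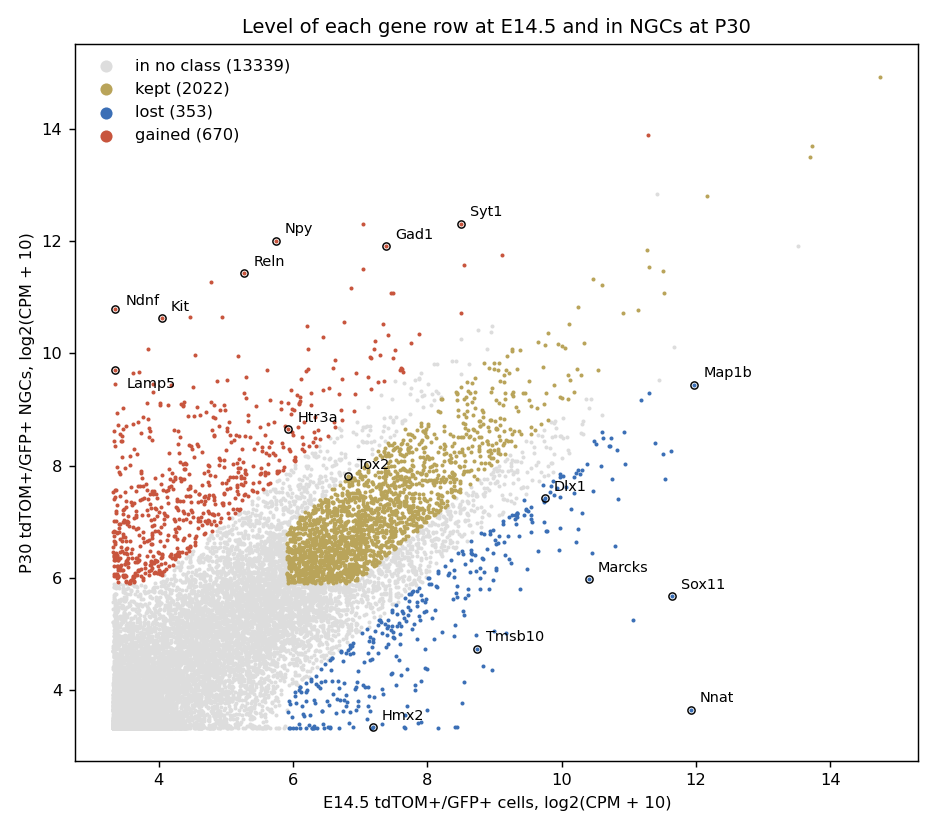
Level of each of the 16384 gene rows, as log2(CPM + 10) of summed counts, at E14.5 (x axis) and in P30 NGCs (y axis), with gained genes in red, lost genes in blue, kept genes in ochre and all others in grey. Ndnf, Npy and Lamp5 lie near the left edge and high, Nnat and Sox11 at the lower right, and Tox2 at the upper edge of the kept genes.

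The gene that gives the lineage its name had a level at E14.5 alone. Here and below, a gene without a row in a table was not read as low there. Gad1 and Tox2, for example, were found at P30 but had no P15 row. The paper states that Hmx3 is not expressed after birth. Hmx3, a homeobox transcription factor, had a row in the E14.5 table alone, at 29.8 CPM (28.9-30.6) with a count in 30.1% of cells, so no difference could be given. Hmx2, its neighbour on chromosome 7, ranged from 0 to 1136 CPM over the E14.5 cells with a median of 51.3. In NGCs the highest of 111 cells was at 19.3 CPM and all others were at 0. The summed level was 136 CPM (134-137) at E14.5 and 0.139 (0.0378-0.355, 4 counts) at P30. After thinning, Hmx2 was found in 64.8% of E14.5 cells (60.0-69.4) and 0.909% of NGCs, and in none of 94 reference cells.

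Of the 25 Hmx-lineage and ventral patterning factors listed, 13 had a row in both tables and 12 in the E14.5 table alone, among them Isl1 (167 CPM), Zic1 (159), Six3 (55.6) and Nkx2-1 (51.0), the specifier of the medial ganglionic eminence and POA. Of the 13, Hmx2, Dlx1 and Lhx6 were lost and 1 was kept, with a median difference of -0.27. Dlx1, a homeobox gene of migrating GABAergic cells, was at 849.7 CPM at E14.5, 161 in NGCs and 228 in the reference cells. Lhx6, which specifies INs of the medial ganglionic eminence, was at 54.0 CPM at E14.5 and was found in 17.7% of cells. In NGCs it had no count, which makes it at least 519-fold lower against a floor of 3 counts over the group. The NGCs were chosen by the Dock5 and Lsp1 labels, which leaves out cells labelled Lamp5 Lhx6. The paper describes a very sparse, mainly deep-layer NGC subtype of the Hmx3 lineage that likely corresponds to that label. The E14.5 cells were not chosen by subtype, and the part of this choice in the Lhx6 difference was not tested.

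The E14.5 cells also carried genes of the preoptic hypothalamus. Of 20 such genes listed, 12 had a row in the E14.5 table alone, and of these Calcr, the calcitonin receptor, reached 123 CPM and Gal, the peptide galanin, 71.4 CPM. Among the 7 with rows in both tables, Foxp2 was lost (70.4 to 3.57 CPM) and Pgr, the progesterone receptor, was gained (1.43 to 77.1 CPM). Th, the rate-limiting enzyme of dopamine synthesis, ranged from 0 to 2299 CPM over the E14.5 cells with a median of 4.88, and 1 count was found in all NGCs. In the E14.5 cells, Th was found in 62.0% of cells with Hmx2 and in 38.8% of cells without it. Which of the 418 cells were on their way to the cortex cannot be told apart from those that would have stayed in the POA.

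**Figure D2:**
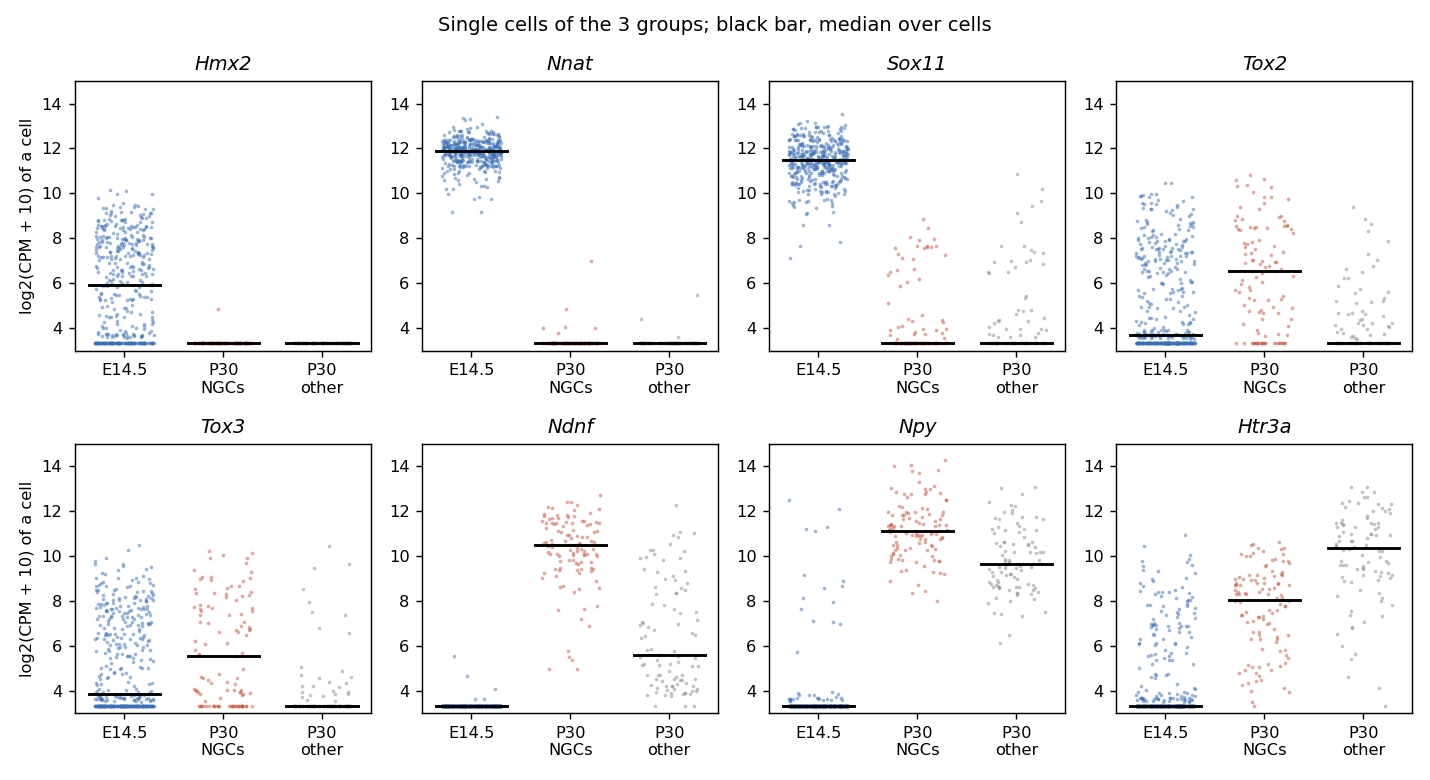
Each point is 1 cell, as log2(CPM + 10), for 8 genes in the 418 E14.5 cells (blue), the 111 P30 NGCs (red) and the 96 P30 reference cells of other subtypes (grey), with a black bar at the median cell. Nnat separates the ages in every cell and Sox11 in nearly every cell, Tox2 and Tox3 spread over the same range at E14.5 and in NGCs, and Htr3a is highest in the reference cells.

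Among the largest losses were genes of the immature neuron, and in several cases every embryonic cell expressed them. Nnat, a small membrane protein of neuronal differentiation, ranged from 559 to 10890 CPM over the E14.5 cells (median 3739) and from 0 to 119 in NGCs (median 0), so that the groups did not overlap. Its summed level was 3865 CPM against 2.57, a difference of -8.27. Sox11, a SoxC transcription factor that drives early neuronal genes, ranged from 129 to 11670 CPM at E14.5 and from 0 to 462 at P30 (medians 2868 and 0). Dpysl3, a collapsin response protein of growing axons, ranged from 48.3 to 7193 CPM and from 0 to 1192 (medians 2011 and 0). For these 2 genes the lowest embryonic cells overlapped the highest NGCs.

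Sox11 and Dpysl3 stood in a list in which most members were lost. Of 26 newborn-neuron cytoskeleton and SoxC genes, 15 were lost, 4 were kept and none was gained, with a median of -2.23. Together they made up 32553 CPM at E14.5 and 6647 in NGCs. Tubulin genes diverged. Tubb5 was at 2955 CPM at E14.5 and 206 at P30, Tuba1a at 3158 and 295, and Tubb3 at 1707 and 206, whereas Tubb2a stayed at 561 and 618. Dcx, the microtubule protein of migrating neurons, went from 983 to 80.0 CPM, while its relative Dclk1 was kept (532 and 714). Fscn1 and Kif5c, an actin bundler and a kinesin motor, were the other kept members.

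Migration and guidance receptors split in both directions, with 6 gained, 5 lost and 4 kept of 24 (median 0.02). Lost were Nrp1 and Nrp2, the semaphorin receptors, with Efna5, Cd24a and Ncam1. Nrp1 was at 222 CPM at E14.5 (median cell 96.3, highest 2399) and at 0.659 in NGCs, where 1 of 110 thinned cells held a count. Among the gained were Erbb4, the neuregulin receptor (39.0 to 819 CPM), Dab1, the reelin adaptor (23.2 to 361), Unc5c, a netrin receptor (10.6 to 524), and Robo2 and Zeb2. St8sia2, the enzyme that adds polysialic acid to Ncam1 in young neurons, was lost (364 to 7.63 CPM), in the same direction as Ncam1 itself (-2.01).

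Of 24 progenitor and cell-cycle genes, 18 had a row in both tables, of which 1 was lost (Vim, 151 to 22.4 CPM) and 2 were kept (Sox2 and Ccnd2), and 15 were in no class, most of them low at both ages. Fabp7, Top2a, Mki67, Mcm3, Ccnb1 and Cdk1 had rows in the E14.5 table alone, with Fabp7 at 73.2 CPM and Top2a at 58.8. Of 22 chromatin and early RNA-binding genes, 4 were lost (Hmgn1, Hmgn2, Igf2bp3 and H2afz), 3 were gained (Elavl2, Rbfox1 and Rbfox3) and 5 were kept, with a median of -0.96. Rbfox3, the gene of the neuronal antigen NeuN, was at 53.4 CPM at E14.5 and 377 in NGCs.

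The 96 rows of ribosomal protein genes took 6.15% of the counts at E14.5, 1.27% in NGCs and 0.858% in the reference cells, and 55 of them were lost and none gained (median -2.13). Of 30 nuclear genes of the respiratory chain and ATPase, 15 were kept and none was gained or lost (median -1.003). Ndufa4 (500 to 903 CPM) and Sdha (196 to 230) were higher at P30, in contrast to Cox6b1, which was at 1270 and 433 CPM. Mitochondrially encoded genes took 5.67% of counts at E14.5 and 6.89% in NGCs.

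The gained genes were led by NGC markers and by synaptic receptors. The NGCs were chosen by labels made from expression and named for markers such as Lamp5, whereas the E14.5 cells were not chosen by subtype. The part of this choice in the gain of NGC markers cannot be told apart. Ndnf, a secreted protein that marks superficial NGCs, was found in 5 of 418 E14.5 cells, at most at 37.0 CPM. In NGCs it ranged from 21.1 to 6683 CPM with a median of 1422, so a few NGCs overlapped the embryonic cells. Its summed level was 0.144 CPM (0.0901-0.218) and 1765 CPM (1750-1780), a difference of 7.45. Lamp5, a lysosome-related membrane protein of the presynaptic bouton, was found in 1 E14.5 cell, at 90.9 CPM, and ranged from 0 to 2858 in NGCs (median 603). Npy, the peptide neuropeptide Y, ranged from 249 to 19741 CPM in NGCs (median 2213). It was found in 6.0% of thinned E14.5 cells (3.9-8.7), the highest of which reached 5810 CPM, so single embryonic cells were already within the range of NGCs.

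Over the 12 genes with the largest gain (among them Ndnf, Kit, Gabbr2, Lamp5, Npy, Adcy1, Reln and Grin2a), a thinned E14.5 cell held counts of 0 to 3 (median 0) and an NGC of 10 to 12 (median 12). Over the 12 with the largest loss (Nnat, Sox11, Dpysl3, Cdkn1c, AW551984, Th, Calb1, Mest, Zim1, Nrp1, Marcks and St8sia2), an E14.5 cell held 5 to 12 (median 10) and an NGC 0 to 4 (median 1). The reference cells held 8 to 12 of the first set (median 11) and 0 to 5 of the second (median 2). These genes were picked by the same values, so the counts describe how evenly the cells of a group held them.

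Genes of transmitter release and of GABA signalling were gained in large part. Of 27 vesicle release genes, 15 were gained and none was lost or kept (median 2.57). Syt1, the calcium sensor of fast release, ranged from 0 to 2787 CPM over E14.5 cells and from 1638 to 11497 over NGCs (medians 149 and 4839). Snap25, of the fusion complex, was at 122 and 2903 CPM, Cplx1, a complexin, at 8.11 and 682, and Syn2, a synapsin, at 26.4 and 983. Stx1a (19.4 and 15.3 CPM) and Sv2b (4.14 and 5.62) showed no such gain. Of 11 genes of GABA synthesis and transport, 6 were gained (median 2.64). Gad1, the main GABA-synthesising enzyme, was at 157 CPM and 3820, and Gad2, its relative, at 541 and 3419.

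GABA and glutamate receptor genes were gained in part. Of 13 GABA receptor genes, 6 were gained and 1 was kept (median 1.70). Gabbr2, of the metabotropic GABA-B receptor, was at 17.5 CPM at E14.5 and 2473 in NGCs. Gabra5 (26.8 and 40.6 CPM) and Gabra2 (40.5 and 66.1) differed little. Of 18 glutamate receptor genes, 9 were gained (median 1.85), with Grin2a at 0.150 and 695 CPM, Grm5 at 3.00 and 800.3 and Grik1 at 7.52 and 529. Gria2, the AMPA receptor subunit that limits calcium entry, was already at 422 CPM at E14.5 and reached 1362.

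Of 20 sodium and calcium channel genes, 10 were gained and none lost (median 2.03), and of 22 potassium channel genes 14 were gained and none lost (median 2.41). Scn2a, a sodium channel gene, was at 29.3 CPM at E14.5 and 752 in NGCs. Scn9a went the other way, from 37.8 to 1.42 CPM, below the level required for a lost gene. Kcna1 was at 0.00653 CPM at E14.5, which is 1 count in all cells, and at 103 in NGCs, and Kcnc1 was at 46.2 and 552.

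**Figure D3:**
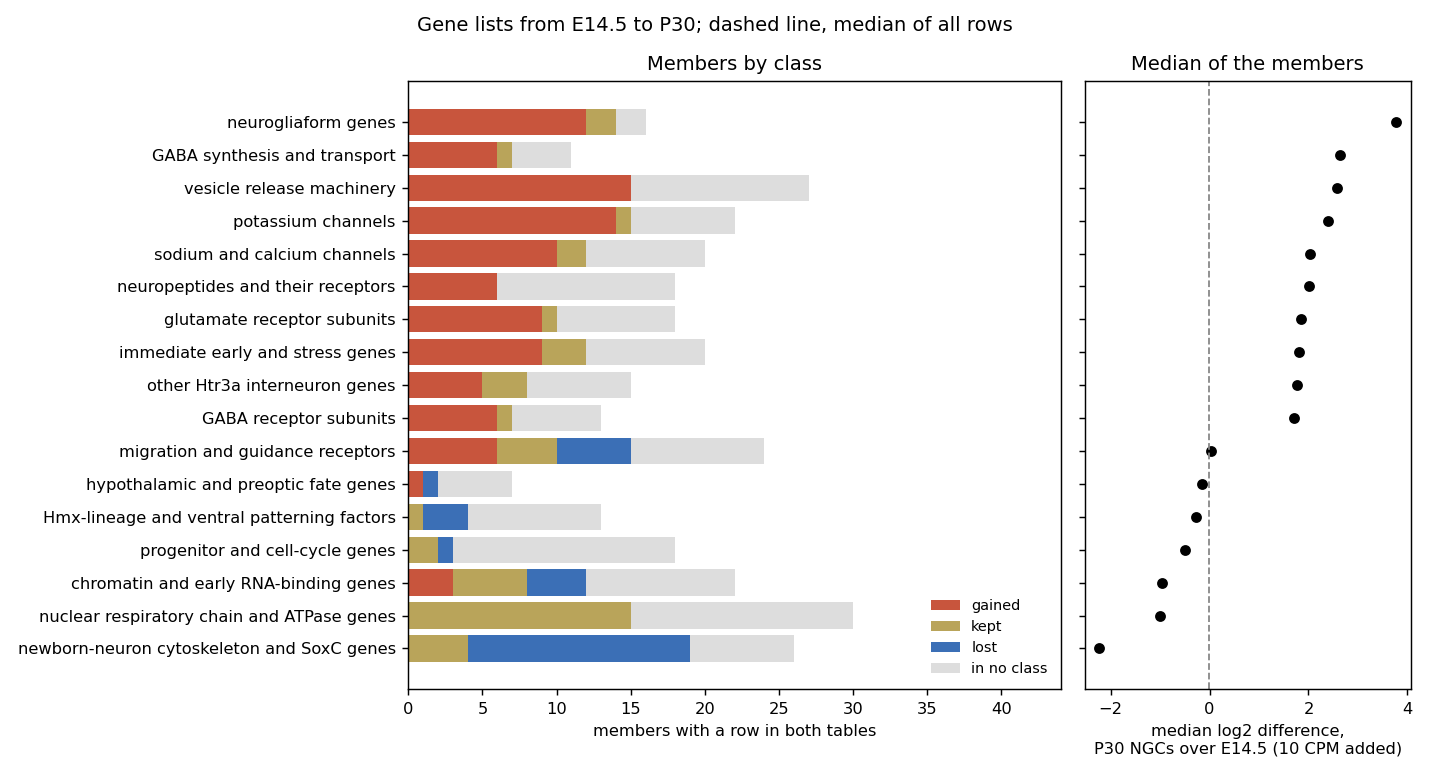
For the 17 gene lists, the left panel gives the number of members with a row in both tables that were gained, kept, lost or in no class, and the right panel the median log2 difference of those members between P30 NGCs and E14.5, with the median of all rows as a dashed line. Neurogliaform genes have the highest median (3.77) and newborn-neuron cytoskeleton and SoxC genes the lowest (-2.23). The neurogliaform list includes Lamp5, Plch2, Dock5 and Lsp1, which name the labels by which the NGCs were chosen.

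In pairs of related genes, the late member took a larger share of the counts at P30. Grin2a, which replaces Grin2b in maturing NMDA receptors, made up 0.113% of the counts of the pair at E14.5 (0.0715-0.169) and 42.0% in NGCs (41.5-42.4), with Grin2b itself higher at P30 (133 and 961 CPM). Scn1a, of the adult sodium channels, went from 4.92% to 77.4% against Scn3a. Dpysl2 went from 15.9% to 95.4% against Dpysl3, although Dpysl2 itself was kept (402 and 579 CPM). Slc12a5, the chloride exporter KCC2 that makes GABA inhibitory, already had 60.7% of the counts with the importer Slc12a2 at E14.5 and 92.9% in NGCs.

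The reference cells showed the same ordering in all 7 pairs, with values that lay on either side of NGCs. In them Grin2a made up 18.2% of its pair and Map2 27.2% of its pair with Map1b, against 42.0% and 45.6% in NGCs and 21.3% for Map2 at E14.5. Vamp1 with Vamp2 stood at 2.91% at E14.5, 28.3% in NGCs and 37.3% in the reference cells. Averaged over single cells, the Vamp1 share was 15.3% in NGCs. Tubb4a took 6.18% of the counts with Tubb2b at E14.5 and 43.1% in NGCs, although its own level was lower at P30 (33.0 and 17.6 CPM). Averaged over single cells, its share in NGCs was 75.6%.

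**Figure D4:**
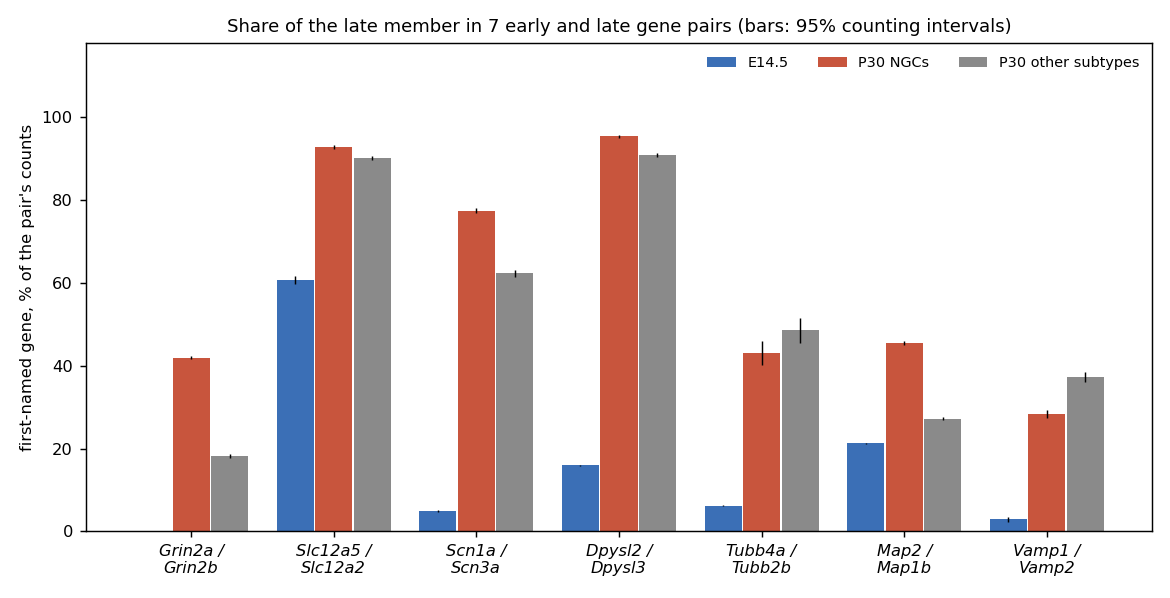
Share of the first-named, late gene in the summed counts of 7 gene pairs at E14.5 (blue), in P30 NGCs (red) and in P30 reference cells of other subtypes (grey), with exact 95% intervals for counting error. The late share is higher in both P30 groups for every pair, and for Grin2a it is 42.0% in NGCs and 18.2% in the reference cells.

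To separate what mature Htr3a INs share from what differed by NGC label, the P30 NGCs were set against the 96 reference cells of the same chip, with 2-fold as the limit. Because a classifier trained on expression had assigned the labels from these values, the differences describe the labels and are no test of them. Over all rows, 690 genes were higher in NGCs (4.21%) and 739 lower (4.51%), and of the 4393 genes with at least 50 CPM in NGCs these were 7.28% and 1.89%. Of the 670 gained genes, 529 were shared with the reference cells within 2-fold, 119 were higher in NGCs and 22 were lower. Of the gained genes named by list above, 1 of 15 for vesicle release (Sv2c), 0 of 6 for GABA synthesis and transport, 1 of 6 GABA receptor genes, 4 of 9 glutamate receptor genes, 1 of 10 sodium and calcium channel genes and 1 of 14 potassium channel genes were higher in NGCs. For Syt1 the reference level was 4593 CPM beside 5061 in NGCs, for Snap25 2409 beside 2903, and for Scn2a 826 beside 752.

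The genes gained and higher in NGCs held most of the neurogliaform list. Of its 20 genes, 16 had a row in both tables, of which 12 were gained, 2 were kept (Tox2 and Tox3) and none was lost (median 3.77). Of these 16, 15 were higher in NGCs than in the reference cells, and Id2 was shared (417 and 412 CPM). Sv2c, a synaptic vesicle protein, was at 18.2 CPM at E14.5, 533 in NGCs and 37.9 in the reference cells. Mpped1, a metallophosphoesterase, was at 5.06, 622 and 103 CPM, and Kit, the stem cell factor receptor, at 6.44, 1567 and 545. Reln, the secreted glycoprotein reelin, was at 28.6, 2742 and 1179 CPM. Dock5 and Lsp1, which give the subtypes their names, were at 28.2 and 12.3 CPM in NGCs and so below the level required of a gained gene. Dock5 was at 42.0 CPM in Dock5+NGCs and 1.23 in Lsp1+NGCs, whereas Lsp1 hardly differed between them, at 11.6 CPM (5 of 76 cells) and 13.6 (3 of 35 cells). Rxfp1, Cplx3, Gabrd and Hapln1 had rows in the P30 table alone, with Cplx3 at 491.6 CPM in NGCs and 95.5 in the reference cells, and Rxfp1 at 252 and 298.

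Other gained genes were higher in NGCs without being on that list. Gabbr2 was at 2473 CPM in NGCs and 976 in the reference cells, Adcy1, a calcium-stimulated adenylyl cyclase, at 1600 and 419.8, and Grin2a at 695 and 202. Egfr, the epidermal growth factor receptor, was at 2.87 CPM at E14.5, 427 in NGCs and 97.9 in the reference cells. Sema3e, Itpr1, Unc5c and Grik1 followed the same order. Marker levels of single reference cells were not zero in this set. Ndnf was found in 89.4% of thinned reference cells at a median of 37.9 CPM, and Npy in all of them at a median of 787 CPM.

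Genes of other Htr3a INs were present in NGCs at a lower level. Of 15 such genes with a row, 13 were lower in NGCs than in the reference cells. Of the 15, 5 were nevertheless gained from E14.5 (Vip, Cck, Adarb2, Htr3a and Cxcl14). Over all rows, 4.51% were lower in NGCs and 4.09% were gained. Vip, the peptide of bipolar INs, was at 0.0588 CPM at E14.5 (9 counts), 383 in NGCs (median cell 205) and 3983 in the reference cells. It was found in 98.2% of thinned NGCs, and how much of this came from RNA of other cells on the chip was not tested. Htr3a itself, whose driver marks every cell compared, ranged from 0 to 1961 CPM at E14.5 (median 0) and was found in 24.6% of thinned cells (20.6-29.1) and 33.7% of unthinned ones. In NGCs its median was 252 CPM and it was found in 95.5%, with summed levels of 50.9 CPM at E14.5, 390.0 in NGCs and 2230 in the reference cells. Between the subtypes it was at 485 CPM in Dock5+NGCs and 205 in Lsp1+NGCs, and in the latter alone it stood under the 4-fold limit.

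Npas1 and Npas3, transcription factors of the bHLH-PAS family, went with the reference cells. Npas1 was at 14.0 CPM at E14.5, 6.69 in NGCs and 228 in the reference cells, and Npas3 at 30.9, 111 and 456. For Npas1 the share of cells with a count went against the level (10.5% at E14.5 and 24.5% in NGCs), and no order was read from it. Nr2f1, Nr2f2 and Prox1, transcription factors of caudal INs, were kept, at 186 and 262 CPM, 204 and 312, and 96.8 and 152.

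Of the 2022 kept genes, 1912 were shared with the reference cells, 86 were higher in NGCs and 24 were lower. The 86 genes made up 4.25% of the kept genes, near the 4.21% of all rows that were higher in NGCs and below the 7.28% of genes with at least 50 CPM in NGCs, so kept genes did not stand out in this count. Tox2, an HMG-box transcription factor, ranged from 0 to 1418 CPM at E14.5 (median 2.90) and from 0 to 1822 in NGCs (median 82.9). Its summed levels were 103 CPM (101-105) and 215 (210.2-221), against 35.3 in the reference cells. The difference from E14.5, 1.00 after rounding, lay just under the limit for a kept gene, and it ranged from 0.64 with 100 CPM added to 1.29 as a mean of log2 values, so its class depended on the setting. Tox2 was found in 45.5% of thinned E14.5 cells (40.6-50.4), 72.7% of NGCs (63.4-80.8) and 38.3% of reference cells (28.5-48.9).

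Tox3, its paralog, was at 95.0, 145 and 30.0 CPM in the same order and was found in 49.8%, 60.9% and 23.4% of thinned cells. In the E14.5 cells, Tox3 was found in 53.7% of cells with Tox2 and in 46.5% of cells without it. Tox2 was found in 45.0% of cells with Hmx2 and 46.3% without. Epha4, an ephrin receptor, was at 117, 172 and 41.4 CPM. It was kept in Dock5+NGCs (210.1 CPM) and in Lsp1+NGCs (98.7), on either side of its embryonic level. Epha3 was at 6.25, 44.5 and 54.6 CPM and was in no class.

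Vcan, a proteoglycan of the extracellular matrix, was at 328 CPM at E14.5, 217 in NGCs and 43.4 in the reference cells. Bcl11a, a zinc finger transcription factor, was at 155, 308 and 79.8 CPM, and Sema6a, a membrane semaphorin, at 185, 323 and 77.5. Serp2, Lin7a, Cdc5l, Sh3rf1 and Lcor completed the 12 kept genes with the highest level in NGCs relative to the reference cells, together with Jun. The number of these genes depended on the cells used, with 44 when all tdTOM- cells without a Dock5 or Lsp1 label served as the reference, 198 in plate rows 1 to 20 and 171 in plate rows 21 to 40. In the P15 collection, NGCs were also set against tdTOM-/GFP+ cells of other subtypes. There the log2 difference was at least 1 for Vcan (3.27), Tox3 (2.67), Sh3rf1 (1.69), Bcl11a (1.68) and Jun (1.21). It was below 1 for Lin7a (0.96), Sema6a (0.66), Lcor (0.60), Serp2 (0.59) and Cdc5l (0.34). Epha4 was lower in P15 NGCs (95.1 CPM) than in those cells (181.6), at -0.87.

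**Figure D5:**
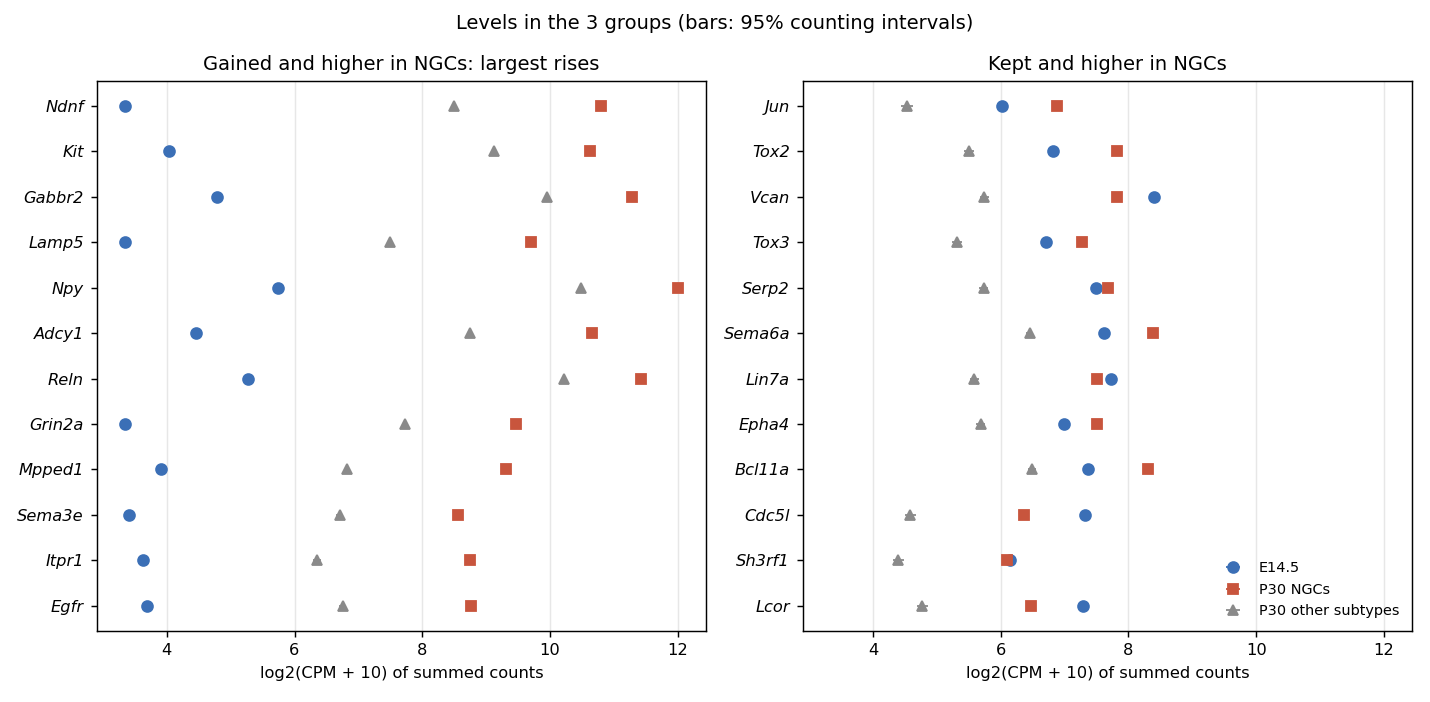
Summed level, as log2(CPM + 10), of the 12 genes gained and higher in NGCs with the largest gain (left) and of the 12 kept genes with the highest level in NGCs relative to the reference cells (right), in E14.5 cells (circles), P30 NGCs (squares) and P30 reference cells (triangles), with bars for 95% counting intervals. On the left the E14.5 level is lowest for every gene, and on the right the reference level is lowest for every gene.

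Jun stood in a list whose summed level was highest in NGCs. Of 20 immediate early and stress genes, 9 were gained, 3 were kept and none was lost from E14.5 (median 1.81). Of the 20, 12 were higher in NGCs than in the reference cells. Over all rows, 4.09% were gained and 4.21% were higher in NGCs. The summed level of the list was 1929 CPM at E14.5, 3663 in NGCs and 1782 in the reference cells. Egr1 was at 30.2, 435 and 181 CPM and Hspa1a, a heat shock gene, at 1.82, 279 and 33.6. These genes respond within minutes to activity and to dissociation, and their part in the other results was not tested.

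A smaller set of lost genes was higher in the reference cells than in NGCs. Of the 353 lost genes, 24 had at least 50 CPM in the reference cells and were at least 2-fold above NGCs. Of all rows, 1.91% met this pair of conditions. The reference cells had no embryonic group of their own, so their earlier levels are not known. Marcks, an actin-regulating membrane protein, ranged from 34.8 to 4659 CPM at E14.5, from 0 to 993 in NGCs and from 0 to 2924 in the reference cells (medians 1297, 5.02 and 224). Map1b was at 4019 CPM at E14.5, 686 in NGCs and 1825 in the reference cells. Ncam1 was at 1539, 376 and 1021 CPM, and Calb1, the calcium buffer calbindin, at 355, 3.68 and 50.6.

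The NGC subtypes had like numbers of genes in each class. Against the same E14.5 cells, which both comparisons share, 698 genes were gained, 396 lost and 1982 kept in Dock5+NGCs, and 694, 444 and 2018 in Lsp1+NGCs. Of the 670 genes gained in the pooled NGCs, 49 were at least 2-fold higher in Dock5+NGCs and 22 in Lsp1+NGCs. Not all of the 670 were gained in each subtype alone. These numbers were 96 and 63 of the 2022 kept genes and 4 and 18 of the 353 lost genes. A share over all rows is not given, so nothing is read from these counts. Npy was at 2207 CPM in Dock5+NGCs and 7795 in Lsp1+NGCs, and Cemip, a hyaluronan-binding protein, at 18.0 and 153. Ramp3, a receptor activity-modifying protein, was at 105 and 9.82 CPM in the same order, Pde4b, a cAMP phosphodiesterase, at 327 and 59.3, and Ndnf at 2186 and 945. Nnat was at 3.83 and 0.102 CPM, far below its embryonic level in both.

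The P15 collection held 36 Dock5+NGCs and 33 Lsp1+NGCs. Its comparison shares the E14.5 cells with the P30 comparison. Over the 11449 rows that all 3 tables held, with CPM rescaled to them, 644 genes were gained at P15, 377 lost and 2162 kept, beside 636, 330 and 2229 for P30 over the same rows. Of the 587 gained genes with a P15 row, 556 already had at least 50 CPM at P15. At that age 34 were more than 2-fold below their P30 level and 9 more than 2-fold above it. Of the 292 lost genes with a row, 60 were at over 2 times their P30 level and 35 were more than 2-fold below it. On these rows, Ndnf was at 0.176 CPM at E14.5, 2540 at P15 and 2127 at P30, and Reln at 35.0, 6463 and 3305. Hmx2 had no count at P15, and Dpysl3 was at 2596, 56.3 and 33.7 CPM. Snap25 (149, 2181 and 3498 CPM) and Vip (0.0719, 273 and 462) were lower at P15 than at P30. Tox3 was at 116, 295 and 174 CPM and Epha4 at 143, 95.1 and 208, so Tox3 went past the limit for a kept gene at P15. Tox2, Nnat, Sox11, Marcks and Gad1 had no P15 row and were not compared at that age.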

How the data were processed

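Single cells were captured on C1 microfluidic chips, and the authors deposited UMI counts per gene and cell, made by alignment with STAR to GRCm38 (mm10), UMI-tools and counting of exonic reads by strand. The authors also removed low-quality cells and, at E14.5, clusters that were not GABAergic. Each collection was handled as 1 sample, so values carry counting intervals (exact Poisson or Clopper-Pearson, 95%) and no test. Counts were summed over cells and scaled to CPM over the rows in both tables, and 10 CPM were added before log2. Shares of cells with a count were taken after thinning to 100000 counts. Doublets had been excluded by the authors from chip images, and no caller was run. P30 and P15 labels are the authors' machine-learning subtypes. No value column was left out (0 unused).

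Named were the genes of the sorts and labels, the 12 with the largest difference in each class, up to 4 members a list, the pair members and leading markers of other cell types. Other list members named were picked after their values were seen. Members and lists were chosen with earlier results of these data known. Alternatives were another added constant, level minimum, fold limit, averaging, scaling, cells, subtype and reference. Steps were tested on simulated counts, with a spread between cells that was set and not fitted to these data. Of genes given a log2 change of 3, 48 of 48 were called, but of those given -3, 33 of 54 were. Of 3918 unchanged genes at the level minimum, 0 were called. The scripts ran under Python 3.11.15 with pandas 2.3.3, scipy 1.17.1, numpy 2.4.6 and, for figures, matplotlib 3.10.9. Some listed genes and 1 gene pair are not reported here.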

Additional observations from a re-analysis of the deposited data

Results flagged for a closer look

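Wwp2, a ubiquitin ligase gene, differed from E14.5 in opposite directions in the NGC subtypes. It was at 40.9 CPM at E14.5, 14.7 in Dock5+NGCs (a log2 difference of -1.04, found in 18 of 76 cells) and 95.8 in Lsp1+NGCs (1.06, found in 12 of 35 cells). The difference between the subtypes was -2.10 and was not tested. Zfhx4, a zinc finger homeobox gene outside the comparison because it had a row in the E14.5 table alone, was at 462.1 CPM of that table and was found in 86.8% of the embryonic cells. Cplx3, a complexin gene with a row in the P30 table alone, was at 491.6 CPM in NGCs and was found in 88.3% of them. No group held 4 to 10 samples, so no check for single outlying samples could be made.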

How the results depend on the processing

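No paired analysis was possible because no result comes from a test and the cells carry no pairing between ages. No value changed sign among the 80 called named genes under the settings run for them. Each gene with a P15 row kept its direction there too (70 of 70). These genes were called at a 4-fold limit, so little change of sign could occur. Sizes did move: over all named genes, 1261 values lay outside the counting interval of the reported difference and 390 within it. The 4-fold limit was kept by 48 of the 80 called genes with 100 CPM added and by 67 as a mean of log2 values. The choice of limits set the counts. Gained genes numbered 119 with 100 CPM added, 1378 at a 2-fold limit, 293 at 8-fold and 361 as a mean of log2 values, and lost genes 53, 1276, 85 and 549. The genes kept numbered 5214 with a level minimum of 10 CPM, 929 with 100, 12351 with none and 333 as a mean of log2 values. Gained genes higher in NGCs numbered 22 with 100 CPM added, 72 at 8-fold and 73 as a mean of log2 values.

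Kept genes higher in NGCs numbered 11 with 100 CPM added, 265, 26 and 319 with a level minimum of 10, 100 or none, 12 as a mean of log2 values, 146 in cells of 200000 counts or more, 198 and 171 in plate rows 1 to 20 and 21 to 40, 191 in Lsp1+NGCs alone, 41 with all tdTOM+ cells, 48 at P15 and 44 with all tdTOM- cells as reference. Lost genes higher in the reference cells numbered 38 and 2 with 1 and 100 CPM added. With a level minimum of 10, 100 or none they numbered 54, 9 and 54. They numbered 56 and 4 at 2-fold and 8-fold, 8 as a mean of log2 values and 37 in plate rows 1 to 20. In Lsp1+NGCs alone there were 51, with all tdTOM+ cells 12 and with all tdTOM- cells as reference 15. The causes were not tested. Using only rows of all 3 tables, a choice made after seeing the data, left all 6 counts within 1.5 times.

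With 100 CPM added, the share of list members called was 0.0% for the Hmx-lineage, progenitor, chromatin and hypothalamic lists, 29.6% for vesicle release, 15.4% for GABA receptors, 25.0% for sodium and calcium channels, 4.5% for potassium channels, 6.7% for other Htr3a IN genes and 10.0% for immediate early genes. As a mean of log2 values it was 0.0% for progenitor and hypothalamic genes, 76.9% for newborn-neuron genes, 22.7% for potassium channels, 10.0% for immediate early genes and 40.9% for chromatin genes. Without thinning, E14.5 shares were 72.0% for Hmx2, 33.7% for Htr3a, 56.9% for Tox2, 60.0% for Tox3, 65.6% for Epha4 and 9.1% for Npy, and NGC shares 99.1% for Htr3a and 72.1% for Tox3, with 4556.0 genes per E14.5 cell and 4288.5 per reference cell. As a mean over cells, the late share of a pair at E14.5 and in NGCs was 0.4% and 38.9% for Grin2a, 58.1% and 92.3% for Slc12a5, 17.1% and 96.3% for Dpysl2, 5.9% and 75.6% for Tubb4a, 22.1% and 47.9% for Map2, and 1.4% and 15.3% for Vamp1, and 4.0% at E14.5 for Scn1a. Depth limits what can be said of genes with few counts, and intervals cover counting error only.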

Other observations

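A list of imprinted genes was drawn up after the values were seen. Of 24 listed, 20 had a row in both tables, of which 9 were lost (Nnat, Cdkn1c, Mest, Zim1, Usp29, Peg10, Dlk1, Ndn and Magel2), 2 were gained (Meg3 and Mirg) and 4 were kept, with a median difference of -1.49. Over all rows, 2.15% were lost and 4.09% gained. The summed level of the list went the other way, from 15962 CPM at E14.5 to 18919 in NGCs and 24647 in the reference cells, and with 100 CPM added 3 genes were lost. Cdkn1c, a cell-cycle inhibitor, was at 338 CPM at E14.5 and 0.104 in NGCs (3 counts), and Mest at 487 and 10.6. Because the list was chosen for such genes, its count is a description only.

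Genes of cholesterol synthesis, also listed after the values were seen, had 4 of 16 members lost (Hmgcs1, Sqle, Fdft1 and Cyp51) and none gained, with a median of -1.39. With 100 CPM added, 0 were lost and the median was -0.38, and in Lsp1+NGCs alone 2 were lost. Their summed level was 1605 CPM at E14.5, 368 in NGCs and 904 in the reference cells.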
